A study of Mus musculus with 6 samples.

Results

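The copines, a family of cytosolic proteins that bind membranes when calcium rises, were measured in whole embryonic mouse brains that carried a deletion in Tdp2 and in wild-type brains. The family was chosen by name after the differences between mutant and wild-type brains on these same 6 arrays were known, so its values are given as a description and support no test. Members were the array rows whose platform annotation names 1 copine and no other gene. Of the 9 copines listed, Cpne1 to Cpne9, 8 had such a row, 1 each, among 19938 genes with a row of their own. Cpne1 shares its only row with Rbm12, so no value is given for it.

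Brains were dissected at embryonic day 16.5 and taken whole, from olfactory bulb to brain stem. There were 3 Tdp2Δ1-3 brains, in which exons 1 to 3 of Tdp2 are deleted, and 3 wild-type brains, each hybridized to its own Affymetrix Mouse Gene 1.0 ST array. Tdp2 encodes the phosphodiesterase that frees DNA ends from trapped topoisomerase II, and the comparison asks which brain transcripts differ without it. The labels used here name neither the sex nor the litter of the embryos, and the titles call the samples of a genotype biological replicates.

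Copines carry a pair of C2 domains, the calcium and phospholipid binding fold of synaptotagmins and classical protein kinases C, followed by a domain related to the von Willebrand factor A domain that binds partner proteins. When calcium enters a cell they move to the plasma membrane and carry bound partners with them. In neurons the best known member is Cpne6, also called N-copine, which is enriched in the brain, sits on the postsynaptic side and brings the GTPase Rac1 to spine membranes.

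Every value was a log2 value from which the row's median over the 6 arrays had been subtracted. Levels therefore cannot be compared between copines, it cannot be said how strongly a copine or a brain marker was expressed, and no row could be checked for being above background. With 6 arrays the median lies midway between the third and the fourth value, so where the groups do not overlap, the mutant and the wild-type brain nearest to each other get mirrored values. Differences between arrays are not touched by this step. The Tdp2 row had -1.05, -0.90 and -0.94 in the mutant brains, against 0.90, 1.10 and 1.34 in the wild-type brains. The labels of all 6 arrays fit that row, although some of its probes may lie outside the deleted exons.

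Of the 8 copines, Cpne2, Cpne4, Cpne5, Cpne6 and Cpne8 were lower in the mutant brains past an adjusted p of 0.05 in limma's fit over all 23410 rows that name a gene. That is 5 of 8, where 4.13% of all rows were called lower. None of the 8 was called higher (2.34% of all rows were), and 7 of the 8 had an unadjusted p under 0.05, as had 21.8% of all rows. The contrast was known when the family was picked, so nothing is read from these counts. The median difference, mutant minus wild type, was -0.37 over the 8 copines and 0.0135 over all rows. In bulk tissue fewer cells of a type and less RNA per cell cannot be told apart.

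Cpne6 had -0.10, -0.24 and -0.36 in the mutant brains, against 0.48, 0.25 and 0.10 in the wild-type brains. Every mutant brain was below every wild-type brain, but the step between the groups, 0.19, was smaller than the range within either genotype, 0.26 among mutants and 0.39 among wild types. The difference was -0.51 ± 0.10 (limma SE, n = 3 per genotype), 1.42-fold lower, and 0.85% of all rows had a more negative one.

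Cpne4 is a long neuronal gene that retinal ganglion cells are known to express. It had -0.16, -0.31 and -0.31 in the mutant brains, against 0.37, 0.19 and 0.16 in the wild-type brains. The groups were 0.33 apart, more than the 0.15 and 0.20 spanned by the mutants and the wild types. The difference was -0.50 ± 0.07 (SE, n = 3 per genotype), 1.42-fold lower. Cpne6 and Cpne4 had differences of nearly the same size.

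Cpne5, expressed in neurons of the developing nervous system, had -0.15, -0.38 and -0.35 in the mutant brains, against 0.15, 0.19 and 0.26 in the wild-type brains. Mutant replicate 1 stood closest to the wild types, and the groups were 0.31 apart. The difference was -0.50 ± 0.07 (SE, n = 3 per genotype), 1.41-fold lower.

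Cpne2 had -0.08, -0.29 and -0.36 in the mutant brains, against 0.21, 0.08 and 0.15 in the wild-type brains. The groups did not overlap, but the step of 0.16 between them was smaller than the 0.28 that the mutants spanned. The difference was -0.39 ± 0.08 (SE, n = 3 per genotype), 1.31-fold lower.

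Cpne8 had the tightest values of the called members. It measured -0.16, -0.19 and -0.19 in the mutant brains, against 0.21, 0.16 and 0.16 in the wild-type brains. The mutants spanned 0.03 and the wild types 0.05, with 0.32 between the groups. The difference was -0.36 ± 0.04 (SE, n = 3 per genotype), 1.28-fold lower.

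The other 3 members were not called in the fit without a replicate block. Cpne7, studied chiefly in tooth formation, had -0.06 in each mutant brain, against 0.17, 0.10 and 0.06 in the wild-type brains. All mutants lay below all wild types, and the difference was -0.17 ± 0.05 (SE, n = 3 per genotype). Cpne9 overlapped between genotypes, with 0.01, -0.00 and -0.24 in the mutants, against 0.09, 0.00 and -0.14 in the wild types. Its difference was -0.06 ± 0.08 (SE, n = 3 per genotype).

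Cpne3, which in human cells binds the ErbB2 receptor and takes part in migration, was the only member with a positive difference. It had -0.01, 0.15 and 0.13 in the mutant brains, against -0.31, -0.07 and 0.01 in the wild-type brains. Mutant replicate 1 lay within the wild-type range, and wild-type replicate 1 lay far below the rest. The difference was 0.22 ± 0.09 (SE, n = 3 per genotype). The series text describes the brains as 3 pairs without saying that replicate numbers mark them, and with the replicate number as a block Cpne3 was called higher.

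**Figure D1:**
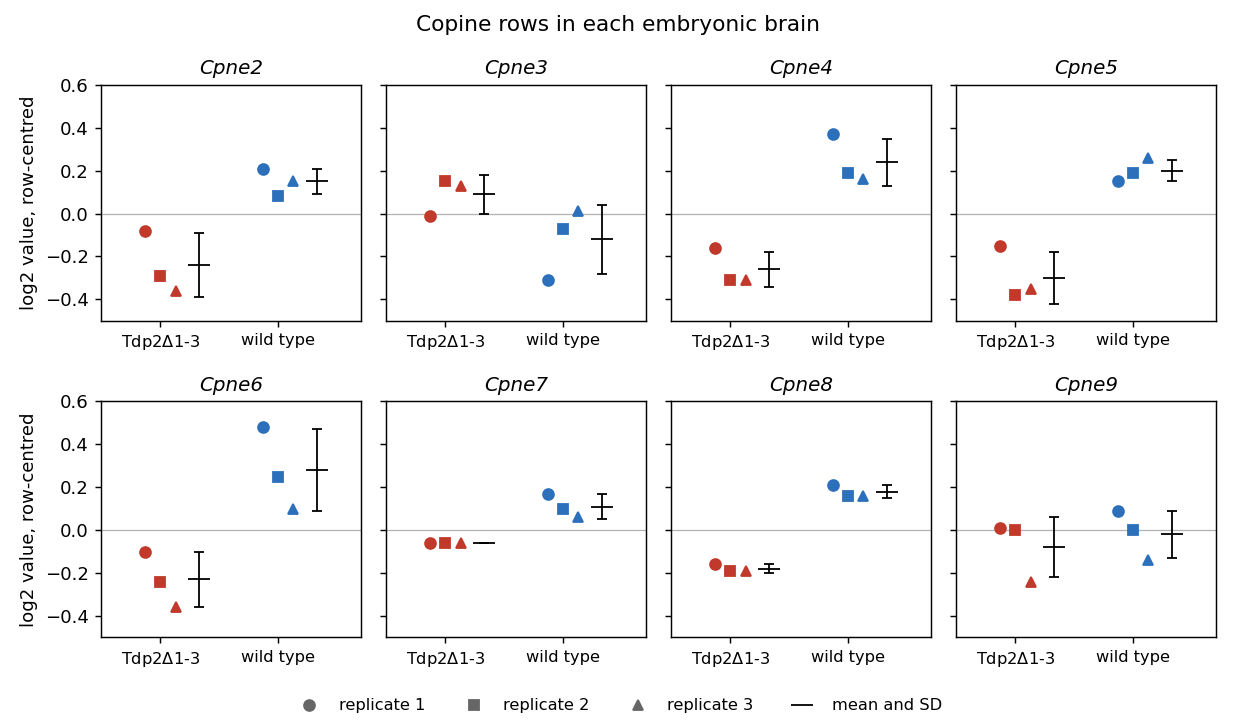
Row-centred log2 values (vertical axis) of the 8 copines in 3 Tdp2Δ1-3 brains (red, left) and 3 wild-type brains (blue, right), with symbols for the replicate and black bars for the mean and SD. In Cpne2, Cpne4, Cpne5, Cpne6, Cpne7 and Cpne8 every mutant value lies below every wild-type value, while Cpne3 and Cpne9 overlap.

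Counted by overlap alone, 6 of the 8 copines had all mutants below all wild types, as had 12.6% of all rows, and 0 had all mutants above, as had 13.1% of all rows. None of the 8 reached the 1.5-fold limit that the series text sets, in either direction, and 163 of all 23410 rows did. With an adjusted p under 0.05 as well, 0.453% of all rows were lower at that limit. The differences formed a group of 5 between -0.51 and -0.36 and the 3 uncalled ones between -0.17 and 0.22. Calls depended on which array was left out. Without mutant replicate 2, 1 copine was called lower, namely Cpne8. Without mutant replicate 3, wild-type replicate 1 or wild-type replicate 2, 3 were, namely Cpne4, Cpne5 and Cpne8. Calls over all 23410 rows fell too, from 967 lower with every array to 113 without mutant replicate 2. They were 399, 457 and 217 without mutant replicate 3, wild-type replicate 1 and wild-type replicate 2 in turn. The differences of the 5 called copines moved less. With any 1 array left out Cpne8 lay between -0.37 and -0.34, and Cpne6 between -0.60 and -0.40.

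**Figure D2:**
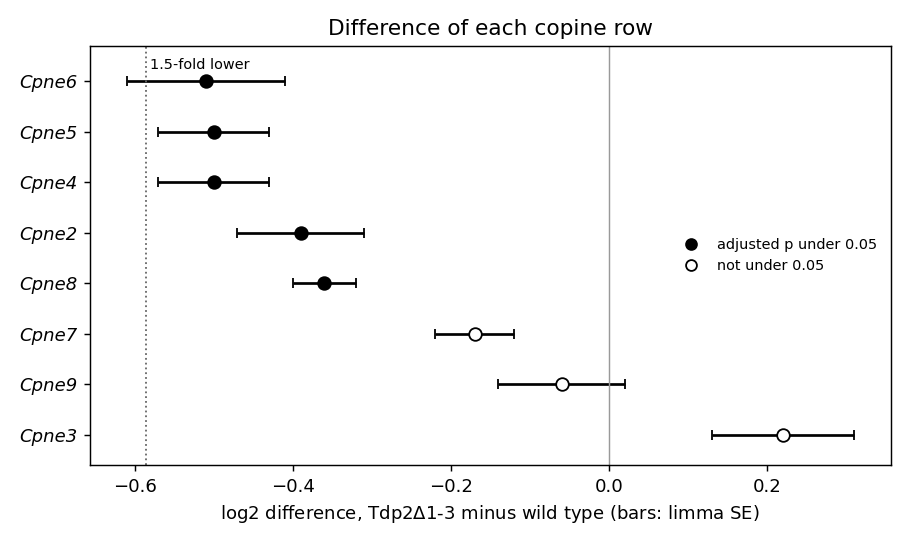
Difference of each copine row, Tdp2Δ1-3 minus wild type on the log2 scale (horizontal axis), with limma standard errors as bars, 3 arrays per genotype. Filled points had an adjusted p under 0.05 over all rows, and all lie right of the dotted line at 1.5-fold lower. Cpne3 is the only point right of 0.

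The bases before the transcription start are shown for the called members whose promoter is in the RefSeq table (GRCm38.p6) and for Cpne9, an uncalled member, so that members that were lower together can be set beside one that was not called. Cpne3, Cpne6 and Cpne7 are not among them. Each run is the 250 bases before the start, 5′ to 3′ on the gene's strand, and capitals mark GC boxes, the letters GGGCGG or CCGCCC on the other strand, to which Sp-family factors bind.
Cpne2 (chr8:94532778-94533027, plus strand): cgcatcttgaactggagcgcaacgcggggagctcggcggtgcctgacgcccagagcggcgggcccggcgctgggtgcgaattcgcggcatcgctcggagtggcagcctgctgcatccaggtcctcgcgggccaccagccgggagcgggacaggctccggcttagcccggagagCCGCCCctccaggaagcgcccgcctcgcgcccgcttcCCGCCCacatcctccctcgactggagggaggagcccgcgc
Cpne4, the first of its listed starts (chr9:104569405-104569654, plus strand): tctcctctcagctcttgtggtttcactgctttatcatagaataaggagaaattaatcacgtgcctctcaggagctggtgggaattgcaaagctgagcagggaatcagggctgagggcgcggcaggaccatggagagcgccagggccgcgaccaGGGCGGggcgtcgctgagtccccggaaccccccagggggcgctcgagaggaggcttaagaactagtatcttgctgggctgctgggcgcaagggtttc
Cpne5 (chr17:29237791-29238040, minus strand): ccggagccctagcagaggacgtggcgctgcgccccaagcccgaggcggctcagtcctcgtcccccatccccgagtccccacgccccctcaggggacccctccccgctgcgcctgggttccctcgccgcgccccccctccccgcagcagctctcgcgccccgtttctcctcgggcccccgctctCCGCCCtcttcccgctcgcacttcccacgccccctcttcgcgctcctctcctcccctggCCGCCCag
Cpne8 (chr15:90679389-90679638, minus strand): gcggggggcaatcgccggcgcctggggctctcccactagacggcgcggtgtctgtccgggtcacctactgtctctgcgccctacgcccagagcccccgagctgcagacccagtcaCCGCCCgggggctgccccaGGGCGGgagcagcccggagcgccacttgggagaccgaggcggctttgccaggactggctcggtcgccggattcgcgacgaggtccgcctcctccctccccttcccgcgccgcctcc
Cpne9 (chr6:113282057-113282306, plus strand): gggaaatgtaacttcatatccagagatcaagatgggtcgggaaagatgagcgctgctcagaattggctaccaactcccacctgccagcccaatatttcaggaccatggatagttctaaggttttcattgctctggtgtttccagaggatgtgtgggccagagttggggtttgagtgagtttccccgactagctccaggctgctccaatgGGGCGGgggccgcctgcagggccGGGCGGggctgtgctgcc

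Cpne2, Cpne5 and Cpne8 held 2 GC boxes each in these windows, as did the uncalled Cpne9, and Cpne4 held 1. Of 32851 promoters in the table, 32.7% held at least 1. Another listed start of Cpne4 (chr9:104587808-104588057) held none. The windows of Cpne2, Cpne5 and Cpne8 were rich in CpG, with 32, 27 and 28 CpG dinucleotides where the median promoter had 6. The first Cpne4 window had 13 and that of Cpne9 had 7. The GC content was 74.4% for Cpne2, 76.4% for Cpne5, 74.4% for Cpne8, 59.6% for Cpne4 and 56.4% for Cpne9. No window held the letters TATAAA on either strand, and 12.4% of all promoters did. A match of letters is a description and shows no binding.

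The brains of a genotype did not carry the copine values evenly. Among the mutants, replicate 1 was the highest in 5 of the 5 called copines. Among the wild types, replicate 1 was the highest in 4 of 5, the exception being Cpne5. How often this order occurs over all rows was not counted. The arrays also differed in spread over all rows naming a gene. The SD was 0.0839, 0.1077 and 0.1455 in mutant replicates 1 to 3, against 0.1297, 0.0912 and 0.0893 in the wild types. The mean of the 5 called copines was -0.13, -0.28 and -0.31 in the mutant brains, against 0.28, 0.17 and 0.17 in the wild-type brains. The 3 uncalled copines averaged -0.02, 0.03 and -0.05 in the mutants, against -0.02, 0.01 and -0.02 in the wild types. That mean joins differences of opposite sign, 0.22 for Cpne3 and -0.17 for Cpne7, so it does not show that each was flat. Over all 8 copines the means were -0.09, -0.16 and -0.22 in the mutants, against 0.17, 0.11 and 0.10 in the wild types.

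Cell type markers moved in the same arrays. Their lists, and the other gene lists below, were chosen with earlier results of these data known, so nothing is read from their counts. Over all rows 4.13% were called lower and 2.34% higher. The mature neuron list averaged -0.11, -0.29 and -0.39 in the mutant brains, against 0.24, 0.18 and 0.13 in the wild-type brains, and so was highest in replicate 1 within each genotype, as was the mean of the called copines. The order is not particular to neurons. Replicate 1 was also highest within each genotype for the astrocyte, oligodendrocyte, vascular, meningeal, microglial, C2-domain and annexin lists described below. It was not for the pyramidal, red cell, choroid plexus, copine partner and Rac lists. Of the 20 measured mature neuron genes 11 were called lower, 0 higher, with a median of -0.41. They included Camk2b, a calcium/calmodulin kinase subunit, at -0.57 (limma adjusted p = 0.0045) and the synaptic vesicle gene Sv2b at -0.63 (limma adjusted p = 0.0075). Without mutant replicate 2, mutant replicate 3, wild-type replicate 1 or wild-type replicate 2, 1, 7, 7 and 4 of them were called. The cycling cell list had the opposite order, averaging 0.18, 0.31 and 0.34 in the mutants, against -0.41, -0.21 and -0.19 in the wild types. All 24 of its genes were called higher (median 0.56). Without mutant replicate 2, mutant replicate 3, wild-type replicate 1 or wild-type replicate 2, 2, 19, 22 and 16 of the 24 were called. The part of these cell markers in the copine differences was not tested.

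**Figure D3:**
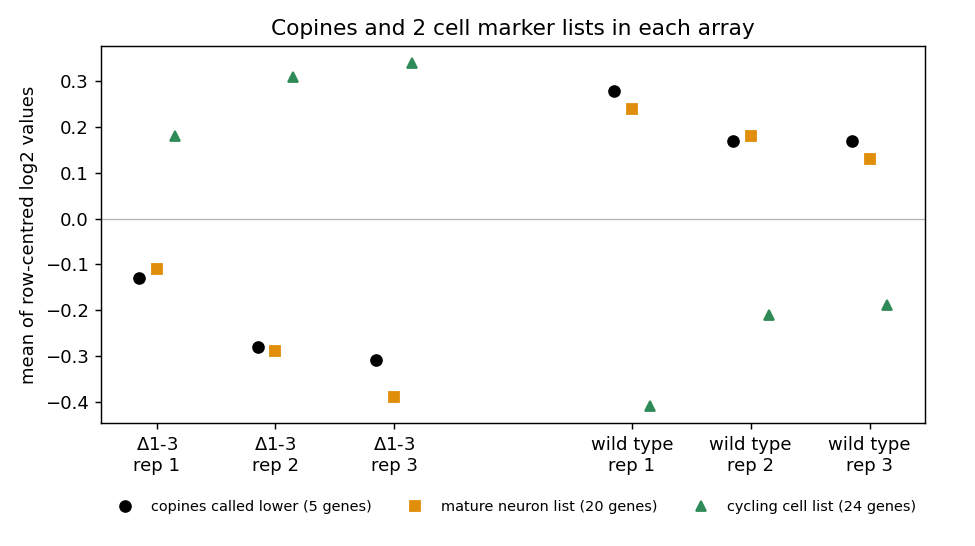
Mean row-centred log2 value (vertical axis) in each array of the 5 copines called lower (black circles), 20 mature neuron genes (orange squares) and 24 cycling cell genes (green triangles), with the 3 Tdp2Δ1-3 brains on the left and the 3 wild-type brains on the right. The copine and neuron means were -0.13 and -0.11 in mutant replicate 1, and -0.31 and -0.39 in mutant replicate 3. The cycling points lie on the other side of 0. Only called copines are shown, while the neuron genes include uncalled ones. All 8 copines averaged -0.09 and -0.22 in mutant replicates 1 and 3.

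The other cell type lists held fewer calls than these 2, but they also held fewer genes, so the counts alone do not rank them. Median differences were -0.15 for pyramidal, -0.27 for astrocyte, -0.21 for oligodendrocyte, -0.06 for vascular and -0.23 for meningeal genes. The medians were 0.06 for red cell, -0.04 for choroid plexus and -0.01 for microglial genes. Of 15 pyramidal neuron genes 3 were called lower and 1 higher, of 12 astrocyte genes 5 lower and 1 higher, and of 10 oligodendrocyte lineage genes 2 lower. Of 15 vascular and of 11 meningeal genes 2 each were called lower. Of 10 red cell genes 2 were called higher and 8 were not called. The 2 were the globin genes Hbb-y, at 3.79 (limma adjusted p = 5.4e-06), and Hba-x, at 1.44 (limma adjusted p = 0.00035). No gene passed among 9 choroid plexus genes (1 with an unadjusted limma p under 0.05) or 11 microglial genes (3 such genes). These counts depended on single arrays. Without mutant replicate 2 the lower counts of the pyramidal, astrocyte, oligodendrocyte, vascular and meningeal lists were all 0. The 5 astrocyte genes were 1 without mutant replicate 3, 1 without wild-type replicate 1 and 0 without wild-type replicate 2, and the 2 vascular genes were 0 without any one of these 3 arrays. The 2 oligodendrocyte and the 2 meningeal genes were 4 each without mutant replicate 1, and 1 each without mutant replicate 3 or wild-type replicate 1. Without wild-type replicate 2 they were 0 and 1, and without wild-type replicate 3 they were 1 each. The pyramidal gene called higher was lost without any array but mutant replicate 1, and the astrocyte gene without any array but wild-type replicate 1. The 2 red cell genes were called with any array left out. Of the choroid plexus genes 1 was lower without mutant replicate 1 and 1 higher without wild-type replicate 1, and of the microglial genes 1 was lower without mutant replicate 1.

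Of the other genes that encode C2-domain proteins, 17 of 49 measured were called lower, where 4.13% of all rows were. In this list 0 were called higher (2.34% of all rows were), and the median was -0.11. By protein family, the called genes were 7 of 17 synaptotagmins, the calcium sensors of vesicles, 4 of 6 active zone genes of the Rims, Unc13 and Pclo kind, 3 of 4 Doc2 and rabphilin genes, both protein kinase C genes and 1 of 2 Mctp genes. No gene was called among 5 synaptotagmin-like, 3 extended synaptotagmin, 3 ferlin, 4 ubiquitin ligase, 2 Ras GTPase activating and 1 phospholipase genes. Rims1, an active zone scaffold, had -0.18, -0.23 and -0.29 in the mutant brains, against 0.18, 0.27 and 0.19 in the wild-type brains, a difference of -0.45 ± 0.05 (SE, limma adjusted p = 0.0052). Doc2a, a calcium sensor of transmitter release, was lower by a similar amount, with a difference of -0.44 ± 0.06 (SE, limma adjusted p = 0.0087). Prkcb, protein kinase C beta, had a difference of -0.53 ± 0.08 and Mctp1, a membrane-anchored protein with several C2 domains, -0.53 ± 0.08 (SE, limma adjusted p = 0.011 for both). Without mutant replicate 2 the count of 17 was 1, without mutant replicate 3 it was 8, and without wild-type replicates 1 and 2 in turn it was 9 and 5.

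Annexins bind membranes in a calcium-dependent way through another fold. Of 12 measured, 0 were called (3 with an unadjusted limma p under 0.05), and their differences ran from -0.20 in Anxa7 (limma adjusted p = 0.053) to 0.03, with a median of -0.04. Without wild-type replicate 1, 1 was called lower. Whether copines and annexins differ as sets was not tested.

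Of 17 measured genes whose products are reported to bind copines or act with them, 0 were called higher, and the median was -0.06. Called lower was 1 gene of the 17, where 4.13% of all rows were. It was Ntrk2, the receptor for the growth factor BDNF. Ntrk2 had -0.15, -0.26 and -0.40 in the mutant brains, against 0.30, 0.15 and 0.18 in the wild-type brains. Its difference was -0.49 ± 0.07 (SE, limma adjusted p = 0.011), and it was not called without mutant replicate 2. Without mutant replicate 1, 3 of the 17 were called lower. Bdnf itself had a difference of -0.03 ± 0.06 and Erbb2, the partner of Cpne3, one of 0.00 ± 0.07. Rac1, the GTPase that Cpne6 carries to spines, had -0.10 ± 0.06 (limma adjusted p = 0.43). Of 26 genes of Rac and spine actin, 0 were called (7 with an unadjusted limma p under 0.05), with a median of -0.05. Rac3, the neuronal relative of Rac1, had the smallest p of that list, at -0.45 ± 0.13 (limma adjusted p = 0.083). Without mutant replicate 1, 4 of the 26 were called lower.

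**Figure D4:**
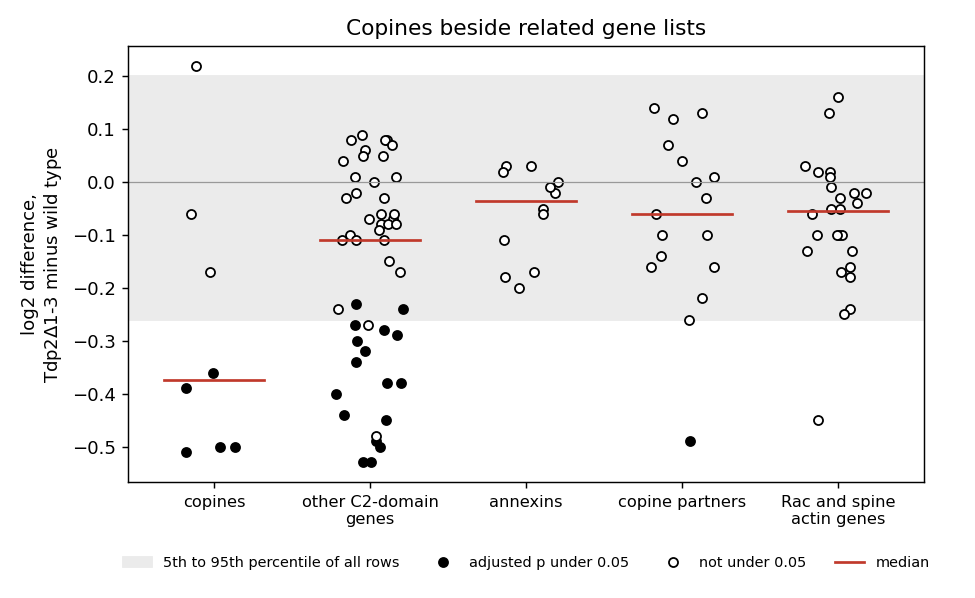
Difference of each gene, Tdp2Δ1-3 minus wild type on the log2 scale (vertical axis), for the 8 copines, 49 other C2-domain genes, 12 annexins, 17 copine partners and 26 Rac and spine actin genes. Filled points had an adjusted p under 0.05, red lines are medians, and the grey band spans the 5th to 95th percentile of all rows, -0.26 to 0.20. The filled points are 5 copines, 17 C2-domain genes and 1 copine partner.

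Genes that lie next to the copines on their chromosomes were looked up in the RefSeq gene order, 1 measured gene on each side of the 9 copines. Of these 18 neighbours 0 were called (3 with an unadjusted limma p under 0.05), and their differences lay between -0.13 and 0.13. Cpne6 is flanked by Carmil3, a regulator of actin capping, at -0.13 ± 0.05 and Nrl, a photoreceptor transcription factor, at 0.13 ± 0.07 (SE, limma adjusted p = 0.17 and 0.32). Cpne4 lies between Acpp, an acid phosphatase gene, at -0.07 ± 0.05 and the mitochondrial ribosomal protein gene Mrpl3 at 0.06 ± 0.05. Next to Cpne8, Alg10b and the kinesin gene Kif21a had -0.06 ± 0.04 and 0.12 ± 0.05.

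Across the 6 arrays the 5 called copines ran alike, with Pearson's r between 0.86 for Cpne5 with Cpne6 and 0.98 for Cpne4 with Cpne6. The uncalled Cpne7 ran as closely with them, with r from 0.85 with Cpne5 to 0.97 with Cpne4 and Cpne6. Cpne9 ran less closely with them, from 0.28 with Cpne5 to 0.64 with Cpne6. Cpne3 ran the other way, with r from -0.94 with Cpne6 to -0.65 with Cpne9. The arrays share their genotype difference, so these values restate it in part, and 6 points carry no test here. Over all genes with a row of their own, between 305 genes (Cpne5) and 595 genes (Cpne2) reached an r above 0.95 with a called copine. The genes closest to Cpne4 were Tpd52l1, Sv2b and Aloxe3 (r from 0.9974 to 0.9981), and those closest to Cpne6 were Epas1, Pitpnm3 and Ank1 (r from 0.9987 to 0.9993). For Cpne8 they were Dock9, an exchange factor for the GTPase Cdc42, the phosphodiesterase gene Pde4b and Prkce, protein kinase C epsilon (r from 0.9980 to 0.9985). For Cpne2 they were Xxylt1, the neuronal calcium sensor gene Hpcal4 and the proteoglycan gene Cspg5 (r from 0.9959 to 0.9988). For Cpne5 they were the kinesin gene Kif3b, Rdh11 and the myosin gene Myo16 (r from 0.9968 to 0.9985).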

How the data were processed

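The deposited log2 values were made by the authors with RMA (Robust Multi-Array Average), per the series text, and Affymetrix Expression Console is named in the submitters' processing notes. Row medians over the 6 arrays were 0 to within 5e-07, a centring no label describes, and the log base is that of the method, not stated in the table. Of 28856 rows, 21789 named 1 gene, 1621 several and 5446 none in the platform annotation. Symbols were updated by gene identifier through RefSeq (GRCm38.p6); a gene with several rows is represented by the one with most accessions.

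The genotype contrast was fitted in R 4.3.3 by limma 3.58.1 (lmFit, eBayes, two-sided) over the 23410 rows naming a gene, with Benjamini-Hochberg adjustment and a limit of 0.05. The steps were tested on simulated data. The members and the 14 gene lists were chosen with earlier results of these data known. Genes named were the members, Tdp2, up to 4 called genes of smallest p in each list (otherwise the 1 of smallest p), the neighbours and the 3 genes most alike each called copine. Bdnf, Erbb2 and Rac1 were named after their values were seen. Alternatives were a replicate block, each array left out, other row sets, equal array medians, cyclic loess, array weights, a robust prior, a 1.5-fold limit and a plain two-sided test of each row.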

Additional observations from a re-analysis of the deposited data

How the results depend on the processing

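Of the 5 copines called lower, the count was 5 with all rows, with only rows naming 1 gene and with the robust prior, and 6 with equal array medians, cyclic loess or array weights, which added Cpne7. With the array weights 1 copine, Cpne3, was called higher. Leaving out 1 array gave 1 to 5 called lower, and a median difference between -0.42 and -0.34. At the 1.5-fold limit 0 were called lower. The plain test of each row called 0 copines and 0 rows after adjustment, with 6 copines and 4078 rows at an unadjusted p under 0.05 in it (7 and 5115 with limma). Over all rows 967 were called lower and 548 higher. The counts were 2781 and 2644 with array weights, 106 and 44 at the 1.5-fold limit, and from 113 to 1639 lower and from 32 to 862 higher with 1 array left out. With the replicate block 5 copines were called lower and 1, Cpne3, higher, and 1496 rows were lower and 904 higher. The series text speaks of 3 pairs of brains, and the labels give shared replicate numbers without saying that these mark the pairs. The same-numbered arrays' deviations correlated at 0.21, 0.05 and 0.20. Between differently numbered arrays the correlations ran from -0.22 (mutant 1 with wild type 3) to 0.06 (mutant 2 with wild type 3). Whether the numbers pair the brains is not settled by these sources. With array weights 2 neighbours (Carmil3 lower and Nrl higher), 2 annexins (both lower) and 7 lower and 1 higher Rac and spine actin genes passed. So did 4 lower and 2 higher copine partners. Of the list counts over all alternatives 299 stayed within 1.5 times and 93 did not. Counts that were 0 and stayed 0, as many of the higher counts did, are among the 299. No copine that was called changed sign under any alternative. Of 112 comparisons of a copine difference with its alternatives, 91 kept their side of the threshold, 16 lost the call and 5 gained it. Another background correction, a filter on dim rows and the slide as a block were not run, since the centred values hold no intensities, levels or slides. Precision is limited by having 3 arrays of each genotype.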
